A study of Mus musculus with 10 samples.

Results

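The activator protein 1 (AP-1) transcription factor genes were followed in RNA-seq data of the gastrocnemius, a calf muscle, of desmin knock-out and wild-type mice. The 10 genes were taken by name, as Fos, Fosb, Fosl1, Fosl2, Jun, Junb, Jund, Atf3, Batf and Maff, and all 10 were found among the 54232 genes of the deposited table. The homozygous knock-out mice (Des -/-, 5 mice) lack desmin, the main intermediate filament protein of muscle, in every tissue and from conception on, and the controls (Des wt/wt, 5 mice) were wild-type littermates. All 10 animals carry the strain label B6J.129Sv-Destm1Cba/Cscl and were 3 months old. The labels name the gastrocnemius as the tissue, while the study also speaks of the adjoining plantaris, so the samples may hold both muscles. The methods speak of RNA pooled from the muscles of each genotype, whereas the table gives a separate column for every mouse, and each column was counted as 1 animal here. If columns were not separate animals, the p-values would measure technical spread.

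The deposited values are regularized log (rlog) values of DESeq2 on the log2 scale. They are corrected for library size and shrunk, most strongly for genes with few reads, so that fold changes of weakly expressed genes are understated. The number of reads behind a value, and so the depth, is unknown. Des itself lay between 16.10 and 17.74 in wild-type mice and between 11.76 and 11.89 in desmin knock-out mice, so each column carried the level of its label. Muscle fiber markers were high in all 10 columns, with a level summed over 10 genes (2 to the power of the rlog value) of 5293473 to 10257953 in wild-type and 4536321 to 5201553 in knock-out mice. Wild-type mouse 3 stood apart from the rest, with the highest value of all 10 mice in 28.7% and the lowest in 27.0% of the tested genes. Its level summed over all genes was 1.48 times the median of the mice, against 0.95 to 1.06 times in the other mice.

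AP-1 is a family of dimers of basic leucine zipper proteins. Proteins of the Jun group pair with each other or with proteins of the Fos group, and Atf3, Batf and Maff are relatives that can join or oppose them. Most of these genes are immediate-early genes, whose transcription starts within minutes after growth factors, calcium entry, mechanical load, injury or stress have switched on MAP kinases, and whose messenger RNAs are short-lived. In skeletal muscle they are known for their rapid induction by exercise, stretch and damage, and also by the removal and handling of the tissue.

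First, the question was which AP-1 genes differ between desmin knock-out and wild-type muscle. Every desmin knock-out mouse exceeded every wild-type mouse in Junb and Jund, whose means differed by 0.61 and 0.63 on the log2 scale. No other AP-1 gene passed the test in either direction. The test was limma on the 14289 genes whose mean reached log2(10), with Benjamini-Hochberg adjustment over all of them and a threshold of 0.05. Of the 10 AP-1 genes 9 reached this expression level, and 2 of the 9 were called higher, where 7.7% of all tested genes were higher and 5.99% lower. Complete separation of the genotypes with higher values in knock-out mice was found for the same 2 genes and for 7.45% of all tested genes. The median log2 difference of the 9 tested AP-1 genes was 0.36, compared with -0.0029 over all tested genes. At an unadjusted p under 0.05 there were 3 AP-1 genes higher and 0 lower (limma). More of all tested genes pass this threshold than the adjusted one, and their share was not counted, so this count has no reference.

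**Figure D1:**
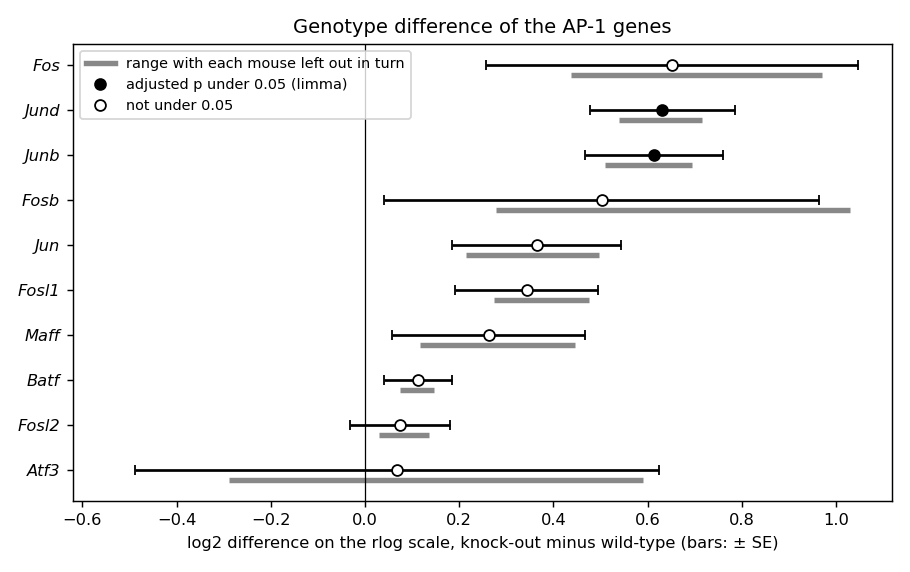
Genotype difference of each AP-1 gene on the rlog scale (x axis, log2 units, desmin knock-out minus wild-type). Points are the estimates with their standard error (5 mice per genotype; Batf is from the fit without an expression limit), filled where the adjusted p from limma was under 0.05, and grey bars span the estimates with each mouse left out in turn. Junb and Jund are the 2 filled points, and the bar of Atf3 crosses 0.

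Junb encodes a Jun protein that is required for the maintenance of muscle mass in adult fibers. Its rlog values were 8.62, 8.79, 8.28, 8.61 and 8.27 in knock-out mice 1 to 5, and 8.23, 8.05, 7.84, 7.90 and 7.49 in wild-type mice 1 to 5. The lowest knock-out mouse exceeded the highest wild-type mouse by a narrow margin, and wild-type mouse 5 was the lowest of all. The log2 difference was 0.61 (standard error, SE, 0.15, limma adjusted p = 0.0134). An exact permutation test of the 10 values, two-sided, returned p = 0.00794, which is the lower bound for groups of 5 mice. Junb (ENSMUSG00000052837) lies on the reverse strand of chromosome 8 of GRCm38 from 84974484 to 84978718, and 351 of its bases overlap Prdx2 on the opposite strand. Prdx2 had a log2 difference of 0.15 (limma adjusted p = 0.446).

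Jund encodes the Jun protein that is also made in resting cells and is less dependent on acute stimuli than its relatives. Its values were 10.60, 11.24, 10.64, 11.16 and 10.74 in knock-out mice 1 to 5, and 10.58, 10.10, 10.39, 10.23 and 9.92 in wild-type mice 1 to 5. Knock-out mice 2 and 4 were the highest, and knock-out mouse 1 was only just above wild-type mouse 1. The log2 difference was 0.63 (SE 0.15, limma adjusted p = 0.0147), with an exact permutation p = 0.00794 (two-sided). Jund (ENSMUSG00000071076) is a gene without introns on the forward strand of chromosome 8 from 70698949 to 70700616. An annotated antisense gene, Gm11175, shares 919 bases with it and had a log2 difference of -0.18 (limma adjusted p = 0.42). The libraries were stranded, but whether reads were counted by strand is not given in the sources used here.

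Omission of single mice gave log2 differences of 0.51 to 0.69 for Junb and of 0.54 to 0.72 for Jund. Omission of wild-type mouse 3 alone gave 0.60 and 0.67. Over all 20 alternatives of the analysis the adjusted p ranged from 0.00147 to 0.0429 for Junb and from 0.00172 to 0.0468 for Jund (limma), so both calls held in each of them at a threshold of 0.05, and neither gene passed 0.01 in the main test.

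Jun, the founding member of the family (ENSMUSG00000052684, chromosome 4, 95049034 to 95052222, reverse strand), had 11.68, 12.01, 11.59, 12.05 and 11.76 in knock-out mice 1 to 5 and 11.98, 11.74, 11.39, 11.30 and 10.85 in wild-type mice 1 to 5. The genotypes overlapped, since wild-type mice 1 and 2 lay within the range of the knock-out mice and the other wild-type mice below it. The log2 difference of 0.36 (SE 0.18, limma adjusted p = 0.208, exact permutation p = 0.127) did not pass, and it was 0.21 without wild-type mouse 5. All 3 Jun genes thus had a higher mean in desmin knock-out muscle, and Jun had the largest spread of them between wild-type mice (SD 0.43, compared with 0.27 for Junb and 0.26 for Jund).

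**Figure D2:**
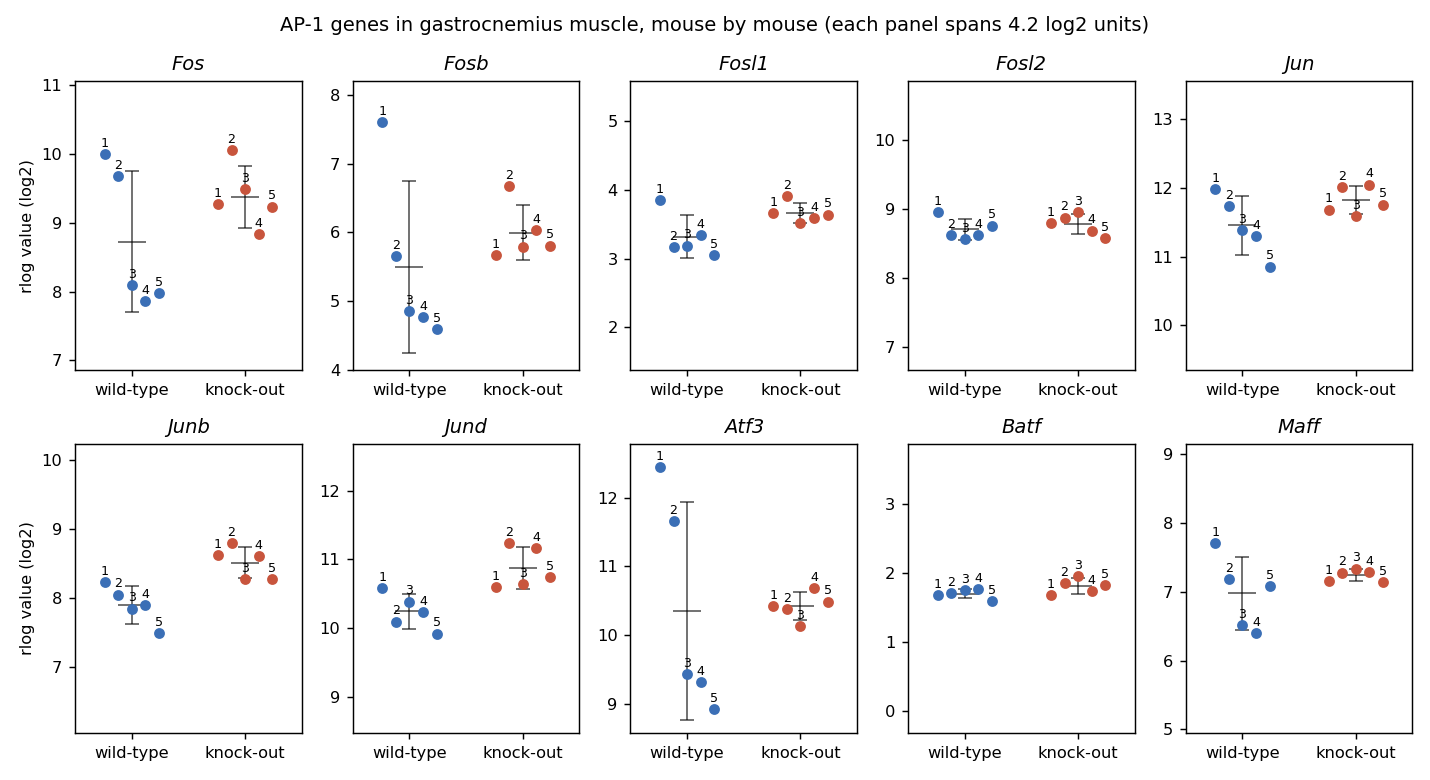
Deposited rlog values (y axis, log2 scale, each panel spanning the same number of log2 units) of the 10 AP-1 genes in 5 wild-type (blue) and 5 desmin knock-out mice (red), numbered as in the labels, with mean and SD in black. The genotypes separate for Junb and Jund, while wild-type mice 1 and 2 lie far above wild-type mice 3 to 5 for Atf3 and Fos.

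The Fos group did not pass the test in any member. Fos (ENSMUSG00000021250, chromosome 12, 85473890 to 85477273, forward strand) is the classical immediate-early gene and encodes a protein that binds DNA only together with a Jun protein. Its values were 9.27, 10.05, 9.48, 8.83 and 9.23 in knock-out mice 1 to 5, and 9.99, 9.68, 8.10, 7.86 and 7.98 in wild-type mice 1 to 5. Wild-type mice 1 and 2 thus reached the upper end of the knock-out range, and wild-type mice 3, 4 and 5 lay below every knock-out mouse. The log2 difference of 0.65 was as large as that of Junb, but its SE was 0.39 (limma adjusted p = 0.309, exact permutation p = 0.214). It ranged from 0.44 without wild-type mouse 4 to 0.97 without wild-type mouse 1, was 0.25 with Y-linked transcripts as a covariate and turned to -0.23 with sample weights, and none of these passed.

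Fosb (ENSMUSG00000003545, chromosome 7, 19302696 to 19310051, reverse strand), which is known for a stable splice form that accumulates with repeated stimulation, had 5.67, 6.68, 5.79, 6.04 and 5.81 in knock-out mice 1 to 5 and 7.60, 5.65, 4.85, 4.77 and 4.60 in wild-type mice 1 to 5. A single wild-type animal, mouse 1, was higher than all knock-out mice, and the other 4 were lower than all of them. Its log2 difference was 0.50 (SE 0.46, limma adjusted p = 0.513, exact permutation p = 0.381). Without wild-type mouse 1, the log2 difference of Fosb was 1.03 (limma adjusted p = 0.0134), so that this animal decides the call.

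Fosl1, which encodes Fra-1 and is itself an AP-1 target, had low values, between 3.51 and 3.91 in knock-out and between 3.05 and 3.85 in wild-type mice. In 4 of 5 wild-type mice it was below all knock-out mice, the exception being wild-type mouse 1 with 3.85. The log2 difference was 0.34 (SE 0.15, limma adjusted p = 0.16, unadjusted p = 0.0407, exact permutation p = 0.0635). Without wild-type mouse 1 it was 0.48 (limma adjusted p = 0.0252). Fosl1 shares 2767 bases with Ccdc85b on the opposite strand, which had a log2 difference of -0.22 (limma adjusted p = 0.456).

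Fosl2, which encodes Fra-2, was the most even of the tested AP-1 genes. Values lay between 8.58 and 8.95 in knock-out and between 8.57 and 8.95 in wild-type mice, and the log2 difference was 0.07 (SE 0.11, limma adjusted p = 0.689, exact permutation p = 0.452).

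Atf3 (ENSMUSG00000026628, chromosome 1, 191170296 to 191218039, reverse strand), a stress-induced gene whose protein represses many AP-1 sites as a homodimer, had the widest range of all 10 AP-1 genes. Knock-out mice 1 to 5 had 10.43, 10.39, 10.13, 10.69 and 10.49, and wild-type mice 1 to 5 had 12.44, 11.66, 9.44, 9.32 and 8.92. All 5 knock-out mice therefore lay in the gap between wild-type mice 1 and 2 above and wild-type mice 3, 4 and 5 below. The means were nearly equal (10.42 ± 0.20 in knock-out and 10.36 ± 1.58 in wild-type mice, SD, n = 5 each), with a log2 difference of 0.07 (SE 0.56, limma adjusted p = 0.951), and an exact permutation test gave p = 0.921. The log2 difference was 0.59 without wild-type mouse 1 and -0.29 without wild-type mouse 5, and neither passed.

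Maff, which encodes a small Maf protein without a transactivation domain, showed a similar arrangement over a narrower range. Knock-out mice 1 to 5 had 7.15, 7.28, 7.34, 7.29 and 7.13, and wild-type mice 1 to 5 had 7.70, 7.18, 6.52, 6.39 and 7.08. Wild-type mouse 1 was above and wild-type mice 3, 4 and 5 were below all knock-out mice, and the log2 difference was 0.26 (SE 0.21, limma adjusted p = 0.436, exact permutation p = 0.302). The difference of Maff was 0.45 without wild-type mouse 1, 0.15 without wild-type mouse 3, 0.12 without wild-type mouse 4, and sample weights turned it to -0.061. None of these passed. Batf, known from lymphocytes, was close to the lower end of the scale, between 1.68 and 1.96 in knock-out and between 1.60 and 1.77 in wild-type mice. It lay under the expression limit, and in the fit without that limit its log2 difference was 0.11 (SE 0.07, limma adjusted p = 0.43, exact permutation p = 0.103).

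Levels of different genes can only be set side by side per length. After subtraction of log2 of the merged exon length in kb, the order in wild-type muscle was Jun (9.78), Jund (9.51), Atf3 (9.25), Fos (7.49), Junb (6.70), Maff (5.60), Fosl2 (5.43), Fosb (2.85), Fosl1 (2.30) and Batf (1.21), each a mean rlog level per kb over 5 mice. The order was the same in desmin knock-out muscle, from 10.14 for Jun to 1.32 for Batf. Neighbours in this order overlapped in their wild-type ranges, except for Fosl2 above Fosb and Fosl1 above Batf. Jun and Jund, at 10.14 each in knock-out muscle, could not be ranked against each other.

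Next, the spread between mice of a genotype was examined, because the wild-type mice differed in so many of these genes. The SD over the 5 wild-type mice was 1.58 for Atf3, 1.25 for Fosb and 1.03 for Fos, larger than for 99.972%, 99.944% and 99.867% of the tested genes. For comparison, the 200 genes closest to each in mean level had a median wild-type SD of 0.24, 0.26 and 0.21. In knock-out mice the SD was 0.20 for Atf3, 0.40 for Fosb and 0.45 for Fos, larger than for 80.1%, 98.6% and 99.2% of the tested genes, so that Fosb and Fos were among the most variable genes in both genotypes. The ratio of the wild-type SD to the knock-out SD was thus 7.87 for Atf3, 6.05 for Maff, 3.10 for Fosb and 2.30 for Fos, and it was 0.846 for Jund. A larger spread in wild-type mice was however the rule in these data. The SD was larger in wild-type mice in 8 of 9 tested AP-1 genes and in 82.9% of all tested genes, with a median ratio of 1.90 over all tested genes and 2.14 over the 9 AP-1 genes.

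**Figure D3:**
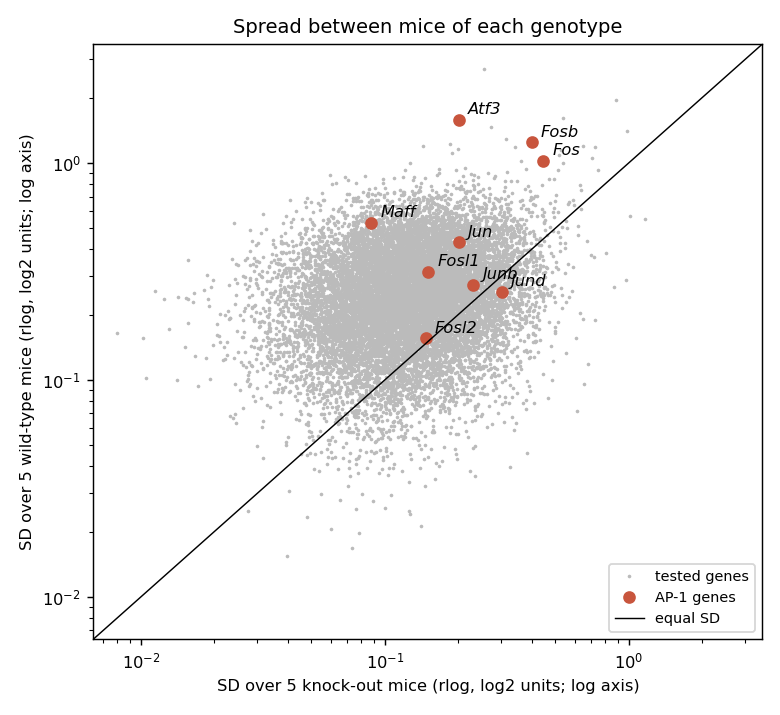
SD between the 5 wild-type mice (y axis) against SD between the 5 knock-out mice (x axis), both in log2 units of the rlog value on log axes, for all tested genes (grey) and the 9 tested AP-1 genes (red), with the line of equal SD. Most genes lie above the line, and Atf3, Fosb and Fos lie at the upper edge of the cloud.

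The same animals recurred at the ends of the range. Wild-type mouse 1 had the highest wild-type value in 9 of the 10 AP-1 genes, all but Batf, whereas it had the highest wild-type value in 16.9% of all tested genes. The lowest value of the genotype belonged to wild-type mouse 5 in 7 of the 10, compared with 18.9% of all tested genes. Wild-type mouse 3, the animal that stood apart over the whole table, was lowest for Fosl2 and was the extreme wild-type mouse in no other AP-1 gene. Among knock-out mice, mouse 2 was highest for Fos, Fosb, Fosl1, Junb and Jund, compared with 22.5% of all tested genes. The AP-1 genes are expressed in many cell types, and in whole muscle a change in the number of cells of a type and a change in RNA per cell cannot be told apart.

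Genes with the most similar pattern over the mice were then named for each AP-1 gene with a range over 1 log2 unit, by the smallest root mean square difference of mean-centred values over all 10 mice. For Atf3, whose own root mean square deviation was 1.01, these were Btg2 (0.35), Otud1 (0.53) and Trib1 (0.53). For Fos (own deviation 0.78) they were Trib1 (0.32), Btg2 (0.34) and Sik1 (0.40), and for Fosb (own deviation 0.87) Trib1 (0.42), Btg2 (0.42) and Otud1 (0.46). Btg2, an antiproliferative immediate-early gene, had 11.47, 10.94, 8.93, 9.07 and 9.17 in wild-type mice 1 to 5 and lay between 10.01 and 10.36 in knock-out mice. Btg2, named here for its closeness to Atf3 in these same values, had the arrangement of Atf3. Its wild-type mice 1 and 2 were above and mice 3, 4 and 5 below every knock-out mouse. Maff was closest to Hif1a (0.10), the hypoxia-inducible factor gene, Crim1 (0.12) and Klf6 (0.13), against an own deviation of 0.36. Junb was closest to Klf11 (0.12), Trp63 (0.15) and Casp4 (0.15), Jund to Gm49454 (0.15), Fam241a (0.16) and Cnrip1 (0.17), and Jun to Ntsr2 (0.15), Flnc (0.15) and Hoga1 (0.18). The own deviations of these genes were 0.38 for Junb, 0.40 for Jund and 0.35 for Jun.

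**Figure D4:**
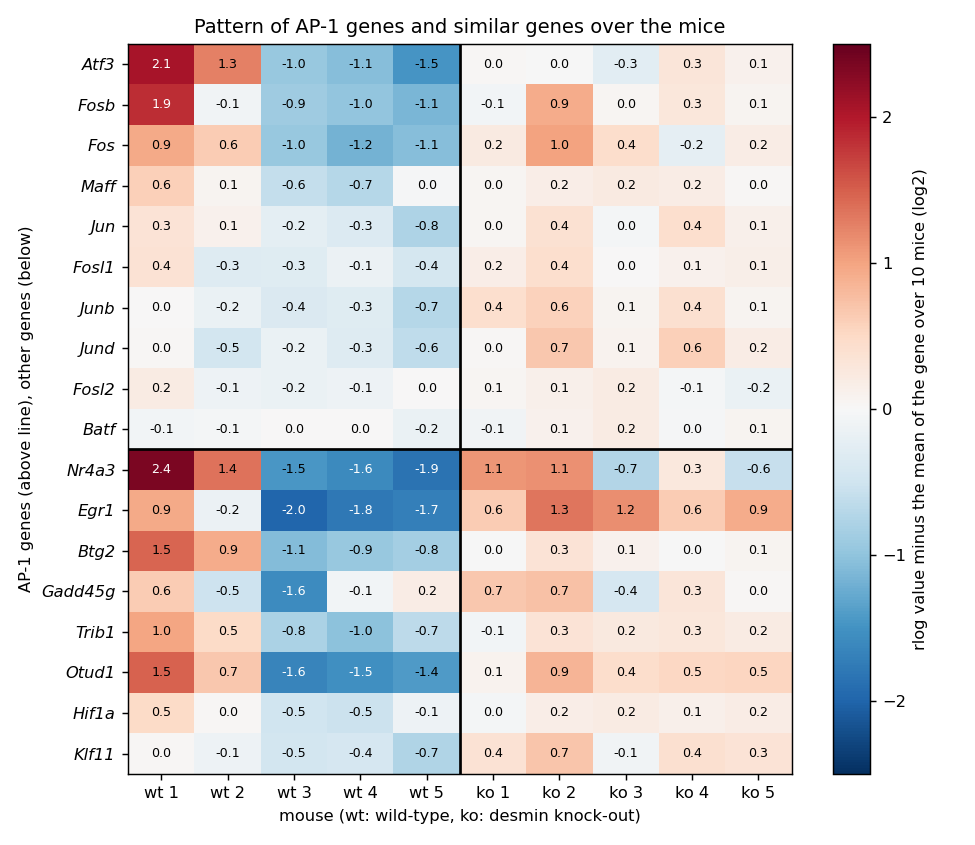
Rlog values minus the mean of each gene over the 10 mice (colour and printed value, log2 units) for the AP-1 genes (above the line) and for immediate-early genes and genes of similar pattern (below the line) in each wild-type (wt) and knock-out (ko) mouse. Wild-type mice 1 and 2 are red and wild-type mice 3 to 5 blue for Atf3, Fos, Nr4a3 and Btg2, whereas Junb and Jund are near or below their mean in every wild-type mouse.

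Promoter windows were examined for sequence features that the AP-1 genes share, with sequences of RefSeq on GRCm38.p6. Windows of 250 bases before to 50 after the transcription start were found for 9 of the 10 genes, 11 windows in all because Maff has 3 starts. The upstream 250 bases are shown for Fos and Fosb, which were both highest in wild-type mouse 1 among its genotype, for Junb, which was higher in knock-out muscle, and for the Maff start that carries a complete cAMP response element. They are written 5′ to 3′ on the strand of the gene and end at the base before the start. Capitals mark matches, on either strand, of the cAMP response element TGACGTCA, its core TGACG, the GC box GGGCGG or the TATA box TATAA, and the core also lies within the complete element.
Fos, forward strand, chr12:85473640-85473889: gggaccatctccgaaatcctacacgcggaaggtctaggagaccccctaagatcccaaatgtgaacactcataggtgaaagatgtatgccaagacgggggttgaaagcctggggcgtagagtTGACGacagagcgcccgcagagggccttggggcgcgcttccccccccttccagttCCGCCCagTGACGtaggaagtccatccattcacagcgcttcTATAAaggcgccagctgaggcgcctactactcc
Fosb, reverse strand, chr7:19310046-19310295: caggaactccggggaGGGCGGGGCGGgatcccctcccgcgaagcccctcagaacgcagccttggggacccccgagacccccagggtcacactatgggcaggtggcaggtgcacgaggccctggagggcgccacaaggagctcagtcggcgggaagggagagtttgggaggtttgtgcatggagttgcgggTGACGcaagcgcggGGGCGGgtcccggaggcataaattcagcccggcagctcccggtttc
Junb, reverse strand, chr8:84978749-84978998: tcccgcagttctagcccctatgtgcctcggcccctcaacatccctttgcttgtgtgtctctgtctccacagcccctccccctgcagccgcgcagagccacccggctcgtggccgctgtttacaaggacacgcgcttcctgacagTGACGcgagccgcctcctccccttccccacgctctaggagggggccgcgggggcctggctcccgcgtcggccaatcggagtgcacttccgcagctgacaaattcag
Maff, forward strand, chr15:79347270-79347519: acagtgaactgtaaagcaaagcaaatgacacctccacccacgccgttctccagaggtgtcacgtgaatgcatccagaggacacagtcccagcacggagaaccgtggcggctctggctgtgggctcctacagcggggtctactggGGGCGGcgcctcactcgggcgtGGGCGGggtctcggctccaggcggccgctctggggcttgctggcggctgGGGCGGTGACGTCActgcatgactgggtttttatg

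In none of the 11 windows was the consensus AP-1 site TGANTCA (found in 7.81% of the 32851 promoter windows of the mouse) or the CArG box, to which serum response factor binds (1.63% of windows), present. Only exact matches inside these windows were counted, so variant sites and sites further upstream were not covered. The complete cAMP response element was found only upstream of this Maff start, at -29 to -22 from it, and in 1.79% of all windows. The core TGACG was found in Fos, at -129 to -125 and -66 to -62 from the start, in Fosb, Junb, Atf3 and Batf and at 2 Maff starts, and in 20.8% of all windows. The windows of Jun, Fosl2 and Jund lacked it. The GC box was found in Fos, Fosb, Fosl2, Jun, Atf3, Batf and Maff (35.7% of all windows) and not in Junb or Jund. The TATA box was found upstream of Fos, at -33 to -29, and in Junb directly at the RefSeq start, at 0 to 4, and in 24.9% of all windows (position 0 is the first transcribed base). The GENCODE start of Junb lies 30 bases downstream of the RefSeq start, so this match lies upstream of the GENCODE start. The core, the GC box and the TATA box were searched after the first 3 motifs had given few matches. The RefSeq start of Jund lies 1210 bases and that of Atf3 34706 bases from the start of the GENCODE gene, so these 2 windows belong to other annotated starts, whereas the starts of Fos, Fosb and Junb differ by 0, 6 and 30 bases.

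The values of the AP-1 genes were then set beside genes that act with them, from lists of known genes. For each list below, cell type markers included, the reference over all tested genes was 7.7% higher and 5.99% lower (limma). This reference belongs only to genes called after adjustment. List counts from unadjusted p-values have no reference, because that share was not counted over all tested genes. Of 30 tested immediate-early genes outside the AP-1 family, 6 rose and 1 fell in desmin knock-out muscle (limma), with a median log2 difference of 0.25. The median was 0.044 both with sample weights and with Y-linked transcripts as a covariate, 0.44 without wild-type mouse 1 and 0.14 without wild-type mouse 3, and 0 genes were lower in 10 of 20 alternatives. The 6 were Egr1, Egr2, Egr3, Ccn2, Ier2 and Gem, and the lower one was Sgk1 (-0.56), Gem and Sgk1 being named after their values were seen. Egr1, the zinc finger gene that responds to the same signals as Fos, had 9.83, 10.53, 10.37, 9.84 and 10.14 in knock-out mice 1 to 5 and 10.15, 9.05, 7.21, 7.41 and 7.49 in wild-type mice 1 to 5. As with Fos, wild-type mouse 1 lay inside the knock-out range and wild-type mice 3, 4 and 5 below it. Unlike in Fos, wild-type mouse 2 was also below every knock-out mouse. For Egr1 the log2 difference of 1.88 passed (SE 0.46, limma adjusted p = 0.0156). Egr2 (1.02) and Egr3 (0.87), named by their adjusted p, separated the genotypes completely, as Junb, Jund and 7.45% of all tested genes did in this direction.

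In the 4 immediate-early genes with the widest wild-type range, Nr4a3, Egr1, Btg2 and Gadd45g, wild-type mouse 1 was the highest wild-type animal, while the animals below it differed. In Gadd45g, a growth arrest gene, wild-type mouse 5 (10.99) was next, and wild-type mouse 2 (10.28) exceeded only wild-type mouse 3 (9.22). Nr4a3, an orphan nuclear receptor gene induced by exercise, had 12.11, 11.12, 8.29, 8.15 and 7.90 in wild-type mice 1 to 5 and between 9.01 and 10.90 in knock-out mice. Its log2 difference was 0.48 (SE 0.75, limma adjusted p = 0.715), and its wild-type range of 4.21 exceeded that of Atf3 (3.52). Wild-type mouse 1 as the highest and wild-type mouse 2 as the next of all 10 mice was the order of 5 of 30 immediate-early genes, of 1 of 9 AP-1 genes, which was Atf3, of 4 of 17 genes for further basic leucine zipper proteins and coactivators, and of 3.07% of all tested genes. It was the order of 1 of 24 MAP kinase genes, 1 of 24 target genes, 0 of 9 phosphatase genes and 0 of 8 heat shock genes. Of 8 inducible heat shock genes 0 passed, with 0 higher and 1 lower at an unadjusted p under 0.05 (limma), a median log2 difference of -0.08 and 0 to 3 called, all lower, over the 20 alternatives. Hsph1 (-0.26, the smallest adjusted p of the list, 0.147), Dnajb1 (-0.25) and Hspa8 (-0.25, highest in wild-type mouse 3) had lower means in knock-out mice. Hspa1a had 9.68, 10.08, 8.93, 8.61 and 7.92 in wild-type mice 1 to 5, against 9.44 to 9.78 in knock-out mice (log2 difference 0.59, limma adjusted p = 0.24). The part of tissue handling in the spread of wild-type mice was not tested.

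MAP kinases and ternary complex factors act upstream of AP-1. Of 24 tested genes of this list 6 were lower and 0 higher (limma), with a median log2 difference of -0.25. The unadjusted p was under 0.05 for 12 lower and 2 higher genes (limma), a count without a reference. Mapk10, the JNK gene best known from neurons, differed by -1.14 (SE 0.18), Rps6ka1 by -1.06 (SE 0.17), the p38 activator gene Map2k6 by -0.57 (SE 0.09) and the p38 gene Mapk14 by -0.43 (SE 0.09), with adjusted p between 9.16e-04 and 0.00582 (limma). The other 2 were the JNK gene Mapk9 (-0.37) and Srf (-0.56), which encodes serum response factor, named after their values were seen. The number of genes called in this list was 12 with sample weights and 10 both with GC and length trends removed and without wild-type mouse 4, of which 10, 8 and 9 were lower. Over all tested genes 4220, 2495 and 1946 were called in these settings, compared with 1956 in the main test (limma). The lowest number called in this list over the 20 alternatives was 5.

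Dual-specificity phosphatases, which switch MAP kinases off and are induced together with AP-1 genes, were the next list. Of 9 tested genes 4 were higher and 0 lower (limma), with a median log2 difference of 0.44. The unadjusted p was under 0.05 for 5 higher and 0 lower genes (limma), again without a reference. Dusp4 lay between 6.17 and 6.79 in knock-out and between 5.27 and 5.76 in wild-type mice, a log2 difference of 1.13 (SE 0.14, limma adjusted p = 1.14e-04). Dusp5 (0.91), Dusp1 (0.50) and Dusp10 (0.51, limma adjusted p = 0.0438) also rose, and 3 to 5 genes were called over the 20 alternatives, with 3 in 10 of them. Dusp1, Dusp4 and Dusp5, named by their adjusted p, separated the genotypes completely, as 7.45% of all tested genes did in this direction. Dusp1, unlike Fos, had its highest wild-type value in mouse 5 and its lowest in mouse 1.

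Of 27 genes known as AP-1 targets, Mmp13, Il6 and Lif were under the expression limit. Of the 24 tested, 11 were higher and 1 lower (limma), with a median log2 difference of 0.37. Over all tested genes 7.7% were higher and 5.99% lower. Among those with the smallest adjusted p were Cdkn1a (1.48, SE 0.11), which encodes the cell cycle inhibitor p21, the metalloproteinase inhibitor gene Timp1 (1.58, SE 0.16) and the hyaluronan receptor gene Cd44 (1.11, SE 0.16). All 3 separated the genotypes completely, as 7.45% of all tested genes did in this direction. In wild-type mice Cdkn1a stayed within 0.26 log2 units, in contrast to Atf3 and Fos. A choice by adjusted p favours genes with such separation and small spread, so neither describes the target list. The 1 lower gene was the gelatinase gene Mmp9 (-0.63, limma adjusted p = 0.0127), named after its value was seen, while Mmp2 and Mmp3 were higher (0.52 and 0.63). These genes have many other regulators besides AP-1, and the list includes Fosl1 itself. Over the 20 alternatives 9 to 16 were called.

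**Figure D5:**
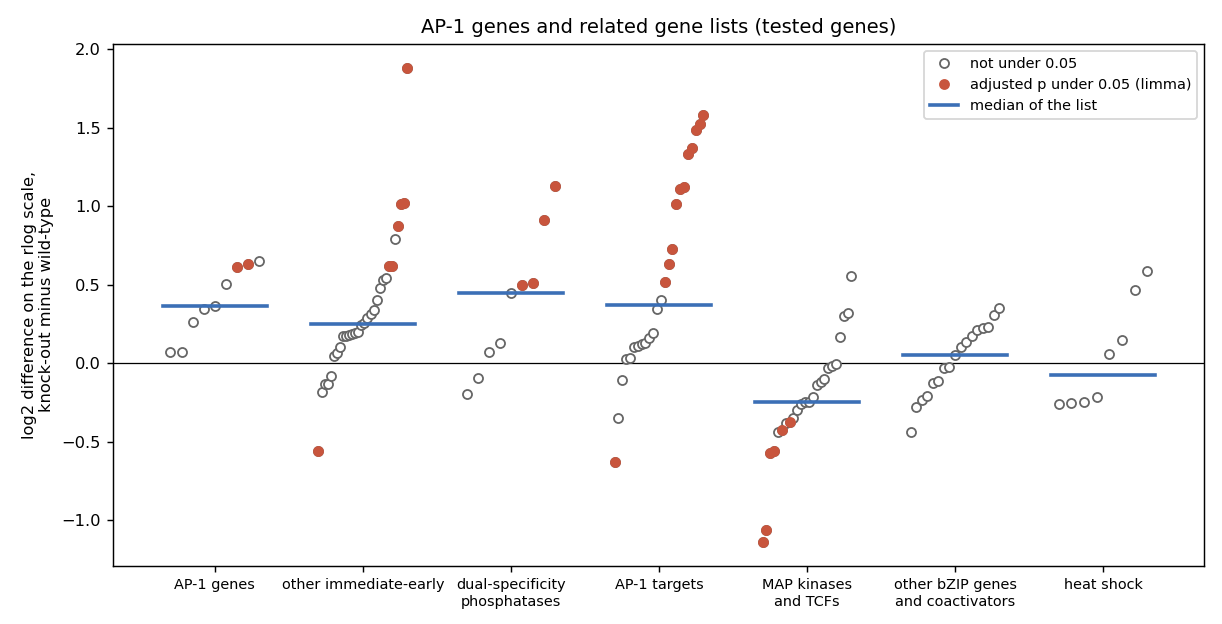
Log2 difference on the rlog scale (y axis, desmin knock-out minus wild-type) of each tested gene in the AP-1 family and in lists of related genes (x axis), filled red where the adjusted p from limma was under 0.05, with the median of each list in blue. Phosphatase and target genes that passed are higher apart from Mmp9, and the MAP kinase genes that passed are lower.

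Other relatives of the family did not pass. Of 17 tested genes for further basic leucine zipper proteins (of the ATF, JDP, CREB, MAF, BACH and NFE2L groups) and the coactivators Crebbp and Ep300, 0 were called, with 2 higher and 2 lower at an unadjusted p under 0.05 (limma) and a median log2 difference of 0.05. The smallest adjusted p belonged to Mafa (-0.44, adjusted p = 0.0696) and Bach2 (0.35, adjusted p = 0.142), followed by Maf (-0.23) and Nfe2l1 (0.23; all limma). The number called was 0 to 4 over the 20 alternatives.

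Markers of the cell types in the muscle moved with genotype in part. Of the 10 muscle fiber markers, which include the knocked-out gene Des itself, Myh2 was higher and Des and Myh4 were lower. The median log2 difference of this list was -0.41. Its summed level, Des included, was 4536321 to 5201553 in knock-out and 5293473 to 10257953 in wild-type mice. All wild-type ranges of summed levels include wild-type mouse 3, whose sum over all genes was 1.48 times the median of the mice. Endothelial markers were lower in 5 of 8 tested genes, with a summed level of 4069 to 5521 in knock-out and 5552 to 7222 in wild-type mice, and red blood cell markers in 2 of 5 (2874 to 4349 against 4095 to 10602). Fibroblast markers were higher in 4 and lower in 1 of 8 (16597 to 24897 against 13186 to 23360). Of the 10 macrophage markers and the 7 Schwann cell markers 0 passed (limma; 0 also at an unadjusted p under 0.05 in both lists), and macrophage markers summed to 2692 to 3781 in knock-out and 2752 to 3518 in wild-type mice. Of 10 lymphocyte markers 8 and of 6 neutrophil markers 4 were under the expression limit, and of the tested ones the lymphocyte marker Zap70 was higher (1.16) and the neutrophil marker S100a9 lower (-1.18), both named by their adjusted p. Satellite cell and myoblast markers were higher in 2 and lower in 1 of 6, smooth muscle markers were higher in 1 of 7, and of 6 adipocyte markers 0 passed (0 also at an unadjusted p under 0.05, limma). The part of these cell types in the higher Junb and Jund levels was not tested.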

How the data were processed

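Libraries of total RNA from the gastrocnemius were made with a stranded mRNA kit. The submitters' processing notes name cutadapt 2.5, STAR 2.5.4a, Subread 1.6.1 with featureCounts and DESeq2 on GRCm38. The values deposited by the authors are rlog values on the log2 scale, so no counts were used, and neither depth nor counting error is known. The settings of rlog are not given in the sources used here.

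Symbols for 54079 of 54232 genes, positions and merged exon lengths were taken from GENCODE M21 (GRCm38). The test (limma 3.58.1, R 4.3.3) covered genes whose mean reached log2(10) (trended prior, two-sided, Benjamini-Hochberg over 14289 genes), all 10 mice and genotype only. A test on counts, as the study used, could not be run on rlog values. Single genes were also tested by exact permutation over all 252 splits of the mice.

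The members and lists were chosen with earlier results of these data known. Named were all members, up to 4 genes of each list with the smallest adjusted p, the 4 immediate-early genes with the widest wild-type range, and the 3 genes nearest in pattern to each member with a range over 1. Alternatives were no limit or log2(50) as limit, quantile normalization, centring on the median, weights per sample, one prior variance for all genes, the replicate number as a block, a covariate of Y-linked transcripts, omission of each mouse and a threshold of 0.01. Removal of GC and length trends (values for 99.9% of tested genes) was added after seeing the data. Protein sequences were not used here, and 1 gene that this rule names is not reported here.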

Additional observations from a re-analysis of the deposited data

How the results depend on the processing

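Junb and Jund kept their call in all 20 alternatives at a threshold of 0.05. The number of AP-1 genes called higher was 2 in each except without wild-type mouse 1, where it was 4 (2 to 4 over the mice left out), and at an adjusted p under 0.01, where it was 0 (limma). Over all tested genes 1956 were called, 4220 with sample weights and 994 at a threshold of 0.01, and 1400 to 2496 with a mouse left out. Sample weights turned the log2 difference to -0.23 for Fos, -0.13 for Fosb, -0.049 for Fosl2, -0.81 for Atf3 and -0.061 for Maff. The weights of wild-type mice 1 to 5 were 1.77, 2.19, 0.10, 0.27 and 0.79. Omission of wild-type mouse 3 alone gave 0.50 for Fos, 0.34 for Fosb, 0.04 for Fosl2, 0.15 for Maff and -0.16 for Atf3. With Y-linked transcripts as a covariate the log2 difference was -0.60 for Atf3 and -0.0015 for Maff. The 4 Y-linked transcripts were expressed in all 10 mice, so this covariate does not stand for a difference of sex. Their summed level was 3931 to 8449 in wild-type and 6338 to 8286 in knock-out mice. The 10 log2 differences of Atf3 with a mouse left out ranged from -0.29 to 0.59, none of them called. The cause of these turns was not tested. The count of AP-1 genes with the larger SD in wild-type mice changed by no more than 1.5 times. Median centring changed the split of all calls from 1100 higher and 856 lower to 942 higher and 979 lower. The labels do not state that same-numbered mice belong together. Over all tested genes, deviations of same-numbered mice correlated between -0.22 and 0.07, and 0 of 5 numbers matched best with their own. These values show no pairing over the whole table but cannot exclude it. With the replicate number as a block 1579 genes were called and the 2 AP-1 genes remained Junb and Jund.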
